A study of Homo sapiens with 26 samples.

Results

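The minor spliceosome is represented here by 9 genes, 3 small nuclear RNAs and 6 proteins, chosen by name because earlier results of these data showed the RNA rows higher in labeled than in control libraries. Of the 9 genes, 8 had a row among the 25745 genes measured and all 8 passed the filter for testing (a log2 value above 0 in at least 3 of 26 libraries), which left 22284 genes. The RNA rows are ENSG00000270022, a long non-coding RNA gene that overlaps RNU12 (U12), and RNU4ATAC (U4atac). RNU6ATAC (U6atac), RNU12 under its own name and RNU11 were not analysed here. The protein rows are the mRNAs of RNPC3, ZRSR2, SNRNP25, SNRNP35, SNRNP48 and PDCD7.

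The study used APEX-seq in HEK293T, a line from human embryonic kidney that carries SV40 large T antigen. The enzyme APEX2 is a peroxidase engineered for labeling that, with hydrogen peroxide, turns biotin-phenol into a short-lived radical that tags nearby molecules, and tagged RNA is then captured on streptavidin. Stable lines expressed APEX2 on the inner side of the plasma membrane through Lyn11 (4 labeled and 4 control libraries) or Lck (3 and 3), or on its outer side through CD28 (3 and 3) or PDGFR (3 and 3). All cells, controls included, were described with the same culture, 30 min of biotin-phenol and 1 min of 1 mM hydrogen peroxide, and the sources used here do not give which step the unlabeled controls lacked. Whether each construct was 1 clone was not given either. The series calls the replicates biological.

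A small class of human introns, the U12-type, carries splice sites that the major spliceosome does not read and is removed by a second, much less abundant spliceosome. Its U11 and U12 RNAs bind the intron ends together as a di-snRNP (a small nuclear ribonucleoprotein), and U4atac and U6atac then enter paired to each other with the U5 RNA that both spliceosomes use. Variants in RNU4ATAC cause microcephalic primordial dwarfism and Roifman syndrome, and variants in RNU12 have been tied to an inherited ataxia.

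The mature RNAs are shown because the largest differences below belong to rows that carry U12 or U4atac. Capitals mark the binding motif of the Sm protein ring (ATTTTTG, searched on the RNA strand) and the longest run over which U4atac and U6atac are complementary by Watson-Crick pairs. Sequences are from GENCODE 29 on hg38, with T for U.
RNU12: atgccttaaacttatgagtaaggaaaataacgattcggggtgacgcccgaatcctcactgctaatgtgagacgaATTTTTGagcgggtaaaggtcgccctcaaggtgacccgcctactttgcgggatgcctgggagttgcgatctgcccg
RNU4ATAC: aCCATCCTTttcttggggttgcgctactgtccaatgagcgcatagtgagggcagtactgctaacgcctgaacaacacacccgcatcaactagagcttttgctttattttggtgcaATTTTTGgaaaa
RNU6ATAC: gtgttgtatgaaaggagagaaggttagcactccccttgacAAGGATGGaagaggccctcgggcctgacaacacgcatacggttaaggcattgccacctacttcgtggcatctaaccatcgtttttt
U12 is 150 bases long and holds the Sm motif at bases 75 to 81. U4atac is 127 bases long and holds it at bases 116 to 122. U6atac, 126 bases long, has no match to these letters, and background knowledge places LSm proteins on it instead. Bases 2 to 9 of U4atac are complementary to bases 41 to 48 of U6atac, a run of 8.

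ENSG00000270022 lies on chromosome 22 from 42615244 to 42615907 on the plus strand (hg38), has 664 exonic bases and is annotated as a lincRNA. RNU12 takes up its first 150 bases, which are 22.6% of it, on the same strand and from the same start, and 514 bases follow. The sources used here do not give how reads in the shared bases were assigned, and the deposited values do not show which bases of the row the reads came from. Its values therefore stand for the row and not for U12 alone. RNU4ATAC lies on chromosome 2 from 121530881 to 121531007 on the plus strand. It sits opposite CLASP1, which encodes a microtubule-binding protein, and inside the span of the same-strand antisense gene ENSG00000265451 (CLASP1-AS1). Only gene spans were compared for these overlaps, not exons. Whether counting used strand was not given, so reads from opposite genes cannot be told apart.

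Reads recovered from the deposited values came to 19.94 to 35.51 M in the 14 inside libraries and 11.57 to 16.58 M in the 12 outside ones, so side and depth cannot be told apart. CD28 labeled library 2 and PDGFR control library 2 stood apart, with 3133 and 3001 genes at 0 reads. Of the HEK293T markers, 4 of 5 had a row, with median log2 FPKM (fragments per kilobase, adjusted for depth) of 4.23 for LIN28B, 4.15 for NEFL, 3.27 for NEFM and 0.65 for PAX2. Among markers of other cell types, the fibroblast gene COL3A1 had a median of -0.87 and the T cell gene CD3E a median of -1.59. These are bulk libraries, so fewer cells carrying an RNA and less of it per cell cannot be told apart.

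Both RNA rows were higher in labeled than in control libraries in all 4 constructs, with no overlap between labeled and control libraries in any of them. Averaged over the constructs, ENSG00000270022 was 15.8-fold higher in labeled libraries (95% interval 10.5 to 23.6) and RNU4ATAC 6.84-fold higher (4.3 to 10.9). None of the 6 protein mRNAs passed the test for the same average. The RNAs were chosen for this contrast, so their differences are a description and carry no test. Among all genes tested, labeled libraries lay above control libraries without overlap in 3.4% of genes in Lyn11 cells, 12.9% in Lck, 7.44% in CD28 and 7.53% in PDGFR cells.

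ENSG00000270022 had 442, 452, 336 and 520 reads in the Lyn11 labeled libraries, against 85, 10, 24 and 19 in the Lyn11 controls. In log2 FPKM these were 4.84, 4.79, 4.36 and 5.06 in labeled and 2.06, -0.46, 0.61 and 0.37 in control libraries. The lowest labeled library, at 4.36, lay above the highest control, at 2.06, which was control library 1, the deepest of all libraries. In Lck cells the row had 238, 228 and 262 reads (4.08, 3.86 and 4.05 log2 FPKM) in labeled libraries, against 29, 17 and 16 (1.12, 0.24 and 0.27) in controls. The Lck labeled libraries were the closest to each other of any group, with an SD of 0.12.

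On the outer side, ENSG00000270022 had 278, 348 and 436 reads (4.86, 5.23 and 5.49 log2 FPKM) in CD28 labeled libraries, against 32, 5 and 21 (1.84, -0.55 and 1.40) in CD28 controls. In PDGFR cells it had 235, 439 and 190 reads (4.59, 5.49 and 4.34) in labeled libraries, against 33, 6 and 21 (1.53, -0.44 and 1.19) in controls. The second control library was the lowest in log2 FPKM in all 4 constructs, while all outer labeled libraries lay above 4. The labeled minus control difference in log2 FPKM was 4.12 ± 0.47 (SE of the fit) in Lyn11 cells, 3.45 ± 0.33 in Lck, 4.30 ± 0.67 in CD28 and 4.05 ± 0.69 in PDGFR cells.

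RNU4ATAC had fewer reads than ENSG00000270022 in every labeled library, and its labeled libraries spread more widely in each construct. It had 72, 35, 48 and 21 reads in Lyn11 labeled libraries (4.63, 3.54, 3.97 and 2.90 log2 FPKM), against 23, 4, 6 and 6 in Lyn11 controls (2.63, 0.82, 1.20 and 1.27). In Lck cells it had 52, 45 and 35 reads (4.30, 3.94 and 3.57) in labeled libraries, against 9, 5 and 4 (1.93, 1.07 and 0.92) in controls. On the inner side the nearest pair was Lyn11 labeled library 4 and Lyn11 control library 1, at 2.90 and 2.63.

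On the outer side, RNU4ATAC had 30, 20 and 11 reads (4.06, 3.54 and 2.66 log2 FPKM) in CD28 labeled libraries, against 3, 3 and 8 (1.08, 1.21 and 2.46) in CD28 controls. In PDGFR cells it had 57, 36 and 10 reads (4.95, 4.30 and 2.57) in labeled libraries, against 0, 0 and 4 (-1.30, -1.30 and 1.38) in controls. The nearest labeled and control libraries were closest in CD28, with labeled library 3 at 2.66 and control library 3 at 2.46, while the means differed most in PDGFR. Differences in log2 FPKM were 2.28 ± 0.54 in Lyn11 cells, 2.63 ± 0.38 in Lck, 1.84 ± 0.78 in CD28 and 4.34 ± 0.79 in PDGFR cells. The PDGFR difference rests on 103 labeled against 4 control reads, a ratio of depth-scaled reads of 26.3 with an exact counting interval of 9.96 to 98.3, and a count of 0 in a library allows up to 3 reads. The PDGFR difference was 3.11 after log2(FPKM + 1) and 5.24 without PDGFR control library 3, the widest range of any RNA value.

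**Figure D1:**
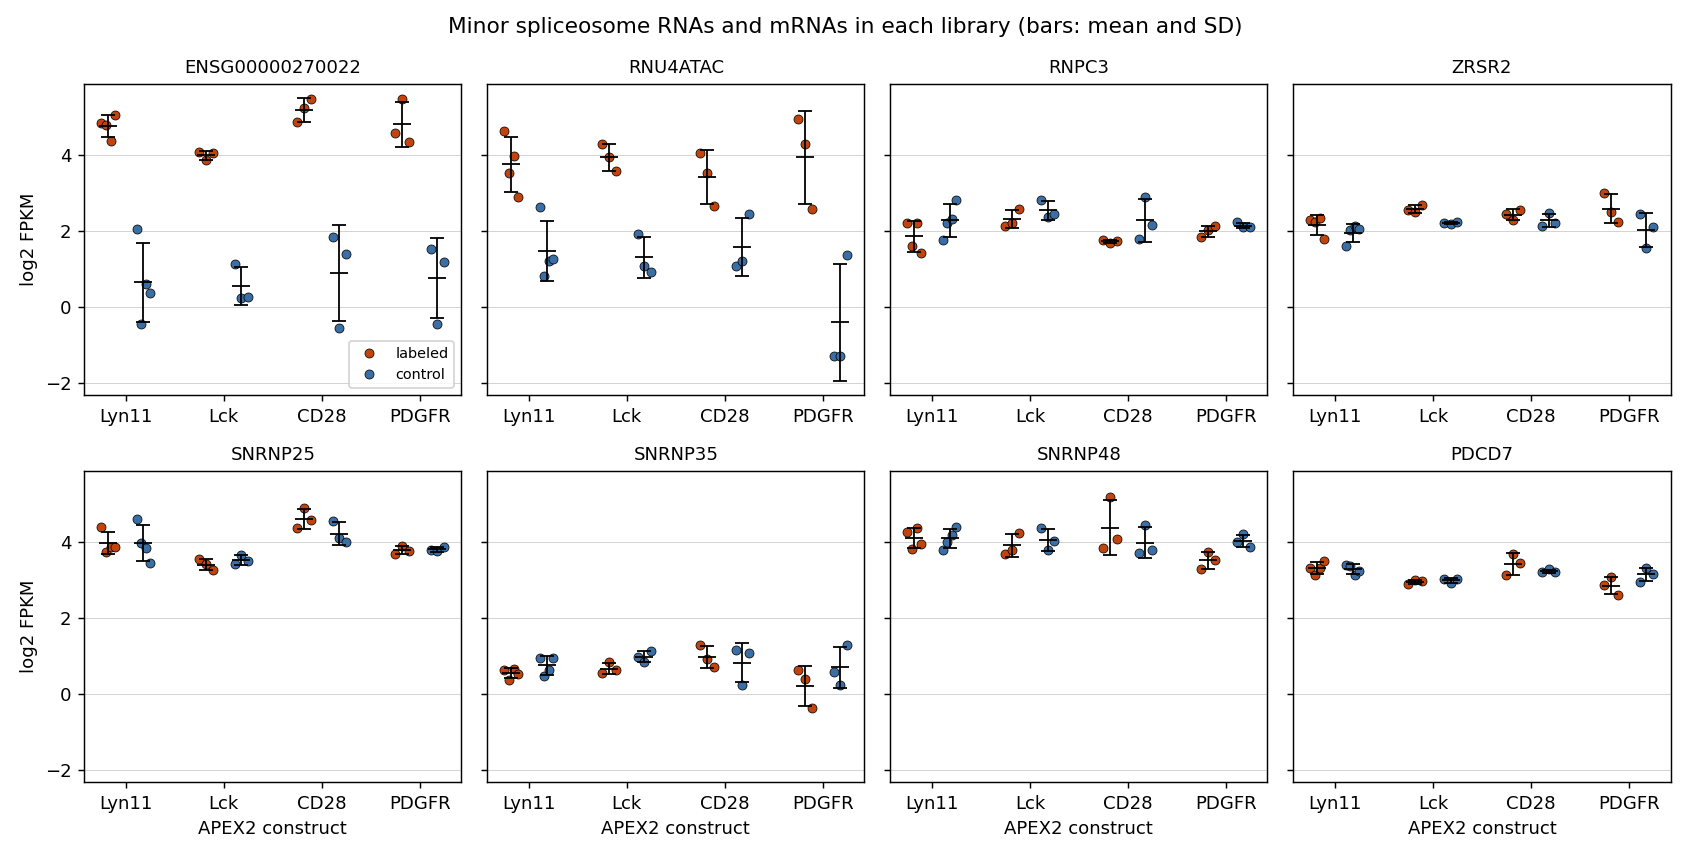
Level in log2 FPKM of each minor spliceosome gene in each library, by APEX2 construct, with labeled libraries (orange) left of controls (blue) and bars for mean and SD (n = 4 and 4 for Lyn11, 3 and 3 for the others). The labeled and control points of ENSG00000270022 and RNU4ATAC are apart in all 4 constructs, and those of the 6 protein mRNAs overlap in most.

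The design also asks whether the sides of the membrane differ. The test of the inside minus the outside difference found no gene among all tested (0.0% of 22284, limma, adjusted p under 0.05), with 1457 genes at an unadjusted p under 0.05 and 0 called by limma voom. For ENSG00000270022 it gave -0.38 ± 0.56 log2 (95% interval -1.55 to 0.78, adjusted p = 0.934), with labeling differences of 4.12 and 3.45 inside and 4.30 and 4.05 outside. For RNU4ATAC it gave -0.64 ± 0.64 (-1.98 to 0.70, adjusted p = 0.886). Both intervals are wide enough to hold a difference between sides of more than 1 log2 unit in one direction.

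Within a side, Lyn11 minus Lck gave 0.67 ± 0.57 for ENSG00000270022 and -0.35 ± 0.66 for RNU4ATAC (adjusted p = 0.999 for each). That comparison called 0.0% of all genes with limma, with 365 at an unadjusted p under 0.05, and 0 with limma voom. CD28 minus PDGFR gave 0.25 ± 0.96 for ENSG00000270022 (adjusted p = 0.994) and -2.51 ± 1.11 for RNU4ATAC (-4.81 to -0.20, adjusted p = 0.891), where 0.0135% of genes were called. The RNU4ATAC value did not pass the adjustment. In unlabeled cells, inside minus outside controls gave -0.23 ± 0.40 for ENSG00000270022 (adjusted p = 0.761) and 0.80 ± 0.46 for RNU4ATAC (adjusted p = 0.278), in a comparison that called 9.9% of genes.

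The protein mRNAs were listed by function and are the comparison the RNAs are set against. RNPC3 (the 65K protein) binds U12 and, through PDCD7 (59K), links it to the U11 particle. SNRNP35 resembles the U1-70K protein of the major spliceosome, SNRNP48 contacts the 5′ splice site, and SNRNP25 is another protein of the U11 particle. ZRSR2 recognises the 3′ splice site of U12-type introns. The limma test called 0 of the 6 in Lyn11 (0.758% of all genes called), in Lck (8.22%), in CD28 (0.0673%), in PDGFR (0.534%) and in the average (7.17%). At an unadjusted p under 0.05 the counts were 0, 1, 0, 1 and 2 of 6, and limma voom on recovered reads called 0 of 6 in each. Their median average difference was -0.05, against -0.01 over all genes tested.

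**Figure D2:**
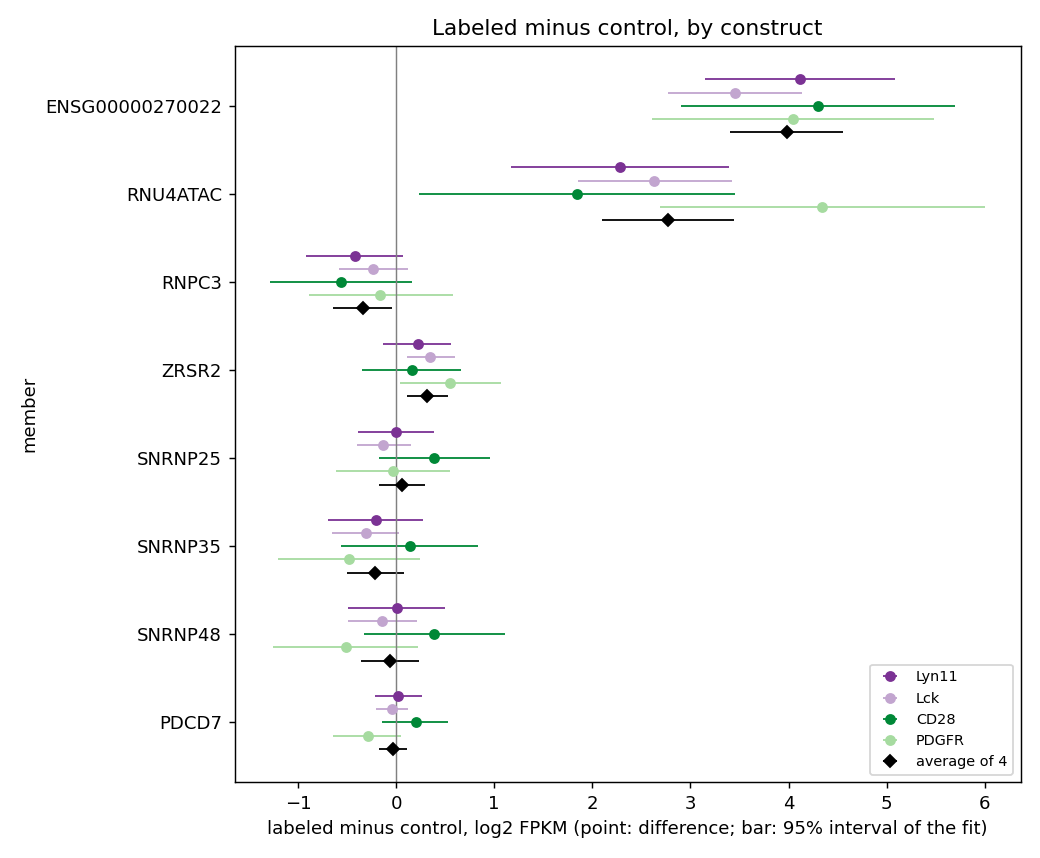
Labeled minus control difference in log2 FPKM for each member (rows) in each construct (circles) and averaged over the 4 (diamonds), with 95% intervals of the fit. The averages of the 2 RNA rows lie at 3.98 and 2.77, and those of the 6 protein mRNAs between -0.34 and 0.32.

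ZRSR2, on chromosome X from 15790472 to 15823260, had the highest average difference of the 6 at 0.32 ± 0.10 (adjusted p = 0.058, higher in labeled libraries in 4 of 4 constructs). Its log2 FPKM was 2.30, 2.25, 2.34 and 1.78 in Lyn11 labeled libraries, against 1.61, 2.02, 2.12 and 2.06 in Lyn11 controls. In Lck cells it was 2.54, 2.49 and 2.69 in labeled libraries, against 2.21, 2.19 and 2.25 in controls. The Lck groups did not overlap, as for the 12.9% of genes given above, and the difference there was 0.35 ± 0.12 (adjusted p = 0.0692). ZRSR2 was 2.45, 2.29 and 2.56 in CD28 labeled libraries, against 2.14, 2.47 and 2.22 in CD28 controls. In PDGFR cells it was 3.01, 2.50 and 2.25 in labeled libraries, against 2.45, 1.56 and 2.10 in controls. The outer groups overlapped in both constructs. The average passed the threshold under 7 of 35 alternative settings, with adjusted p from 0.025 to 0.148.

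RNPC3, on chromosome 1 from 103525691 to 103555239, had the lowest average, -0.34 ± 0.14 (adjusted p = 0.182), and its mean was lower in labeled libraries in 4 of 4 constructs. It had 2.20, 1.60, 2.21 and 1.41 log2 FPKM in Lyn11 labeled libraries, against 1.77, 2.22, 2.32 and 2.81 in Lyn11 controls. In Lck cells it had 2.14, 2.21 and 2.58 in labeled libraries, against 2.82, 2.36 and 2.44 in controls. Labeled and control values of RNPC3 overlapped in both inner constructs. In CD28 cells it had 1.77, 1.68 and 1.73 in labeled libraries, against 1.79, 2.90 and 2.16 in controls, which did not overlap (labeled lay below control without overlap in 6.59% of all genes). In PDGFR cells it had 1.83, 2.02 and 2.12 in labeled libraries, against 2.23, 2.10 and 2.10 in controls. RNPC3 overlaps AMY2B, an amylase gene, on the same strand, so reads in the shared stretch are uncertain.

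SNRNP48, on chromosome 6 from 7590199 to 7611967, averaged -0.06 ± 0.14 (adjusted p = 0.886). It had 3.29, 3.74 and 3.54 log2 FPKM in PDGFR labeled libraries, against 4.01, 4.21 and 3.88 in PDGFR controls, which did not overlap (labeled lay below control in this way in 6.39% of all genes). The PDGFR difference was -0.51 ± 0.35 (adjusted p = 0.786). In CD28 cells it was 3.85, 5.20 and 4.07 in labeled libraries, against 3.71, 4.46 and 3.79 in controls. The value of 5.20 came from CD28 labeled library 2, with 3002 reads, and without that library the CD28 difference of 0.39 was -0.03. Inner libraries of SNRNP48 lay between 3.70 and 4.38 when labeled and 3.78 and 4.40 as controls.

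SNRNP25, on chromosome 16 from 53010 to 57669, averaged 0.06 ± 0.11 (adjusted p = 0.858), with the highest construct difference in CD28 at 0.39 ± 0.27. PDCD7, on chromosome 15 from 65117379 to 65133836, averaged -0.03 ± 0.07 (adjusted p = 0.898), the smallest error of the 6, and ran from -0.29 ± 0.17 in PDGFR to 0.20 ± 0.16 in CD28. SNRNP35, on chromosome 12 from 123457641 to 123473154, averaged -0.21 ± 0.14 (adjusted p = 0.467) and had the lowest level of the 6 in log2 FPKM. No construct separated the labeled from the control libraries of these mRNAs. SNRNP25 overlaps POLR3K, a subunit of RNA polymerase III, and SNRNP35 overlaps RILPL1, both on opposite strands, so a part of their reads may belong to the partner.

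The other comparisons called 0 of the 6 protein mRNAs as well. In the controls alone, inside minus outside ranged from -0.26 for SNRNP25 to 0.19 for RNPC3, and 0 of 6 had an unadjusted p under 0.05. For inside minus outside labeling the range was -0.24 to 0.04, for Lyn11 minus Lck -0.19 to 0.15, and 0 of 6 had an unadjusted p under 0.05 in either. CD28 minus PDGFR ran from -0.40 for RNPC3 to 0.90 ± 0.50 for SNRNP48, with 1 of 6 at an unadjusted p under 0.05 (PDCD7, 0.49 ± 0.23, adjusted p = 0.913). Limma voom called 0 of 6 in each of these.

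Log2 FPKM is scaled per exonic length of the annotated row, so levels can be set in order on that scale. Those lengths were 664 bases for ENSG00000270022, 127 for RNU4ATAC and 2077 to 6867 for the protein mRNAs. The order between genes depends on them, and the bases that gave the reads are not shown. Over the 13 labeled libraries the highest mean was ENSG00000270022 at 4.70 ± 0.54 log2 FPKM (SD), then SNRNP48 at 3.99 ± 0.47, SNRNP25 at 3.95 ± 0.48 and RNU4ATAC at 3.76 ± 0.73. ENSG00000270022 stood above SNRNP48 by more than either SD, and SNRNP48, SNRNP25 and RNU4ATAC lay within their spread of each other. PDCD7 followed at 3.15 ± 0.30, ZRSR2 at 2.42 ± 0.29, RNPC3 at 1.96 ± 0.32 and SNRNP35 at 0.60 ± 0.38, and each step from PDCD7 down exceeded the SDs. Over the 13 control libraries SNRNP48 came first at 4.05 ± 0.26, then SNRNP25 at 3.89 ± 0.37, PDCD7 at 3.18 ± 0.16, RNPC3 at 2.31 ± 0.36 and ZRSR2 at 2.11 ± 0.27. RNU4ATAC at 1.03 ± 1.17, SNRNP35 at 0.81 ± 0.35 and ENSG00000270022 at 0.71 ± 0.89 were last and within their spread of each other. Both pairs SNRNP48 with SNRNP25 and RNPC3 with ZRSR2 also lay within their spread. Among the mRNAs, SNRNP48, SNRNP25 and PDCD7 came first in that order in both arms, and RNPC3 and ZRSR2 changed places.

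A comparison inside each library does not depend on how libraries were scaled to each other. The level of ENSG00000270022 minus the mean level of the 6 mRNAs ran from 1.24 to 2.89 log2 (median 2.04) in labeled libraries, against -3.46 to -0.63 (median -2.10) in controls. It was above 0 in 13 of 13 labeled and 0 of 13 control libraries. The same quantity for RNU4ATAC ran from -0.19 to 2.39 (median 1.18) in labeled libraries and from -3.97 to -0.06 (median -1.56) in controls. It was above 0 in 12 of 13 labeled libraries, all except CD28 labeled library 3, and in 0 of 13 controls. The mRNA mean itself ran from 2.32 to 3.11 in labeled and from 2.53 to 2.91 in control libraries. The RNA rows were chosen for being higher in labeled libraries, so these values restate that contrast and carry no test. Where the 0 line falls depends on the exonic lengths used for log2 FPKM.

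**Figure D3:**
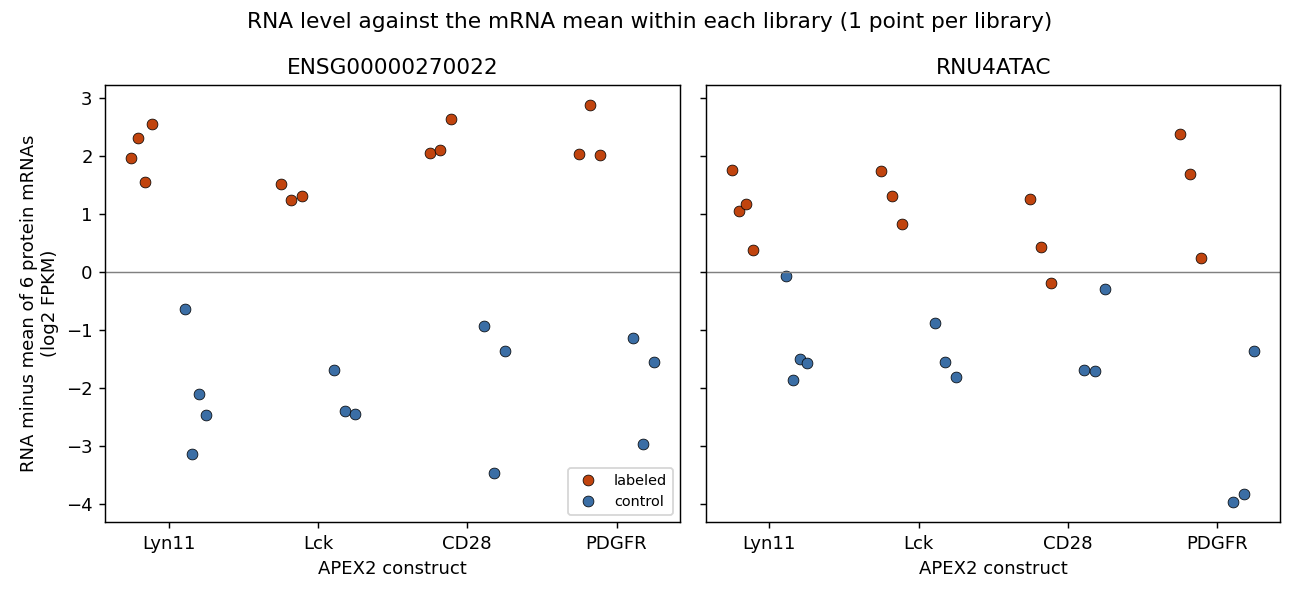
Level of each RNA row minus the mean of the 6 protein mRNAs in the same library (log2 FPKM), 1 point per library, with labeled left of control in each construct. All 13 labeled points of ENSG00000270022 and 12 of 13 of RNU4ATAC lie above 0, and all 13 control points of each lie below 0.

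Genes around the RNA rows were measured in the same libraries. CLASP1, opposite RNU4ATAC, averaged 0.05 ± 0.05 labeled minus control (adjusted p = 0.672). CLASP1-AS1, whose span holds RNU4ATAC on the same strand, averaged 0.30 ± 0.26 (adjusted p = 0.627), with 0.88 ± 0.31 in Lck (adjusted p = 0.0856) and -0.63 ± 0.63 in CD28. Near ENSG00000270022, POLDIP3, whose product takes part in mRNA export, averaged 0.07 ± 0.08 (adjusted p = 0.731) and the cytochrome b5 reductase gene CYB5R3 averaged 0.05 ± 0.10 (adjusted p = 0.861). None of these 4 genes passed the test in the average, and the upper 95% bound of the highest, CLASP1-AS1, was 0.84.

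Human genomes hold many copies of small nuclear RNA genes annotated as pseudogenes, and reads can be split between near-identical copies. There were 10 such rows tested, made up of 4 copies of RNU4ATAC, 4 of RNU6ATAC and 2 of RNU11. The 4 RNU4ATAC copies averaged between -1.04 ± 0.39 (RNU4ATAC11P, adjusted p = 0.129) and -0.04 ± 0.48 (RNU4ATAC12P), against 2.77 ± 0.32 for RNU4ATAC itself. The RNU11 copies averaged -0.28 ± 0.43 (RNU11-6P) and 0.22 ± 0.51 (RNU11-2P). Of the RNU6ATAC copies, RNU6ATAC10P averaged 1.35 ± 0.35 (adjusted p = 0.0186 by limma, 0.0542 by limma voom) and was named after its values were seen. It had 6 to 15 reads in PDGFR labeled libraries, against 0 to 3 in PDGFR controls, and 6 to 8 in Lyn11 labeled libraries, against 0 to 11 in Lyn11 controls. The other RNU6ATAC copies averaged -0.73, 0.05 and 0.41, and RNU6ATAC7P fell by 1.68 ± 0.48 in Lck (adjusted p = 0.0305). It had 2 to 11 reads in Lck labeled libraries, against 15 to 21 in Lck controls, and the call was lost without Lck labeled library 1 or 2 or Lck control library 2 or 3, without construct weights and with Lck fitted alone (adjusted p up to 0.871). How reads matching several copies were counted was not given.

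**Figure D4:**
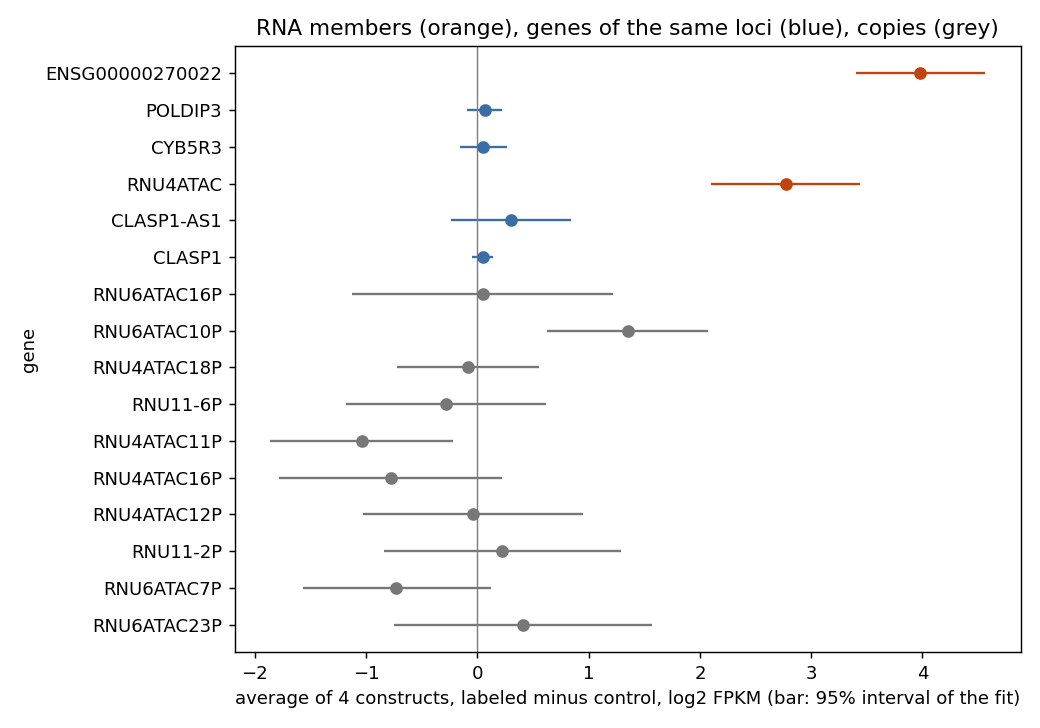
Average labeled minus control difference over the 4 constructs in log2 FPKM, with 95% intervals of the fit, for the RNA rows (orange), genes of the same loci (blue) and annotated copies of minor spliceosome RNAs (grey). The RNA rows lie at 3.98 and 2.77, the 4 locus genes between 0.05 and 0.30, and the copies between -1.04 and 1.35.

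Genes whose levels ran most like the RNA rows were ranked by Pearson r over the 26 libraries among the 13223 named genes whose mean log2 FPKM reached 1. For ENSG00000270022 these were RNVU1-7 at 0.949, RNVU1-15 at 0.947 and RNVU1-4 at 0.945, all variant genes of the U1 RNA of the major spliceosome and near-identical in sequence. For RNU4ATAC they were RNVU1-15 at 0.848, HM13-AS1 at 0.846 and SGPP2 at 0.845. The RNA rows had an r of 0.817 with each other. The libraries fall into labeled and control groups for these genes, so r serves here only to rank them.

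Other genes of the pathway were counted by role, first for the average over constructs with limma. These counts stand beside 7.17% of all genes called in the average and 8.22% in Lck. Among 10 other minor spliceosome protein mRNAs 0 rose and 0 fell, with a median of 0.01 and a range of -0.20 to 0.16, and in Lck 1 fell (CCDC84, also called CENATAC, -0.31 ± 0.10, adjusted p = 0.0448). The CCDC84 call held under 15 of 36 alternatives and was lost, among others, when any of the 6 Lck libraries was left out, without construct weights, with Lck fitted alone and with voom. Among 7 mRNAs of their major spliceosome counterparts 0 passed (median 0.07). The Sm ring mRNAs, whose proteins sit on the motif in U12 and U4atac, gave 0 of 7 called, a median of 0.16 and a range of 0.12 to 0.28. SF3B mRNAs, shared by the U2 and U12 particles, gave 0 of 7 (median 0.08), and the tri-snRNP mRNAs used by both spliceosomes 0 of 8 (median 0.05). At an unadjusted p under 0.05 these 5 lists had 1, 0, 1, 1 and 0 genes, and limma voom called 0 in each.

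Of the 14 tested mRNAs for assembly and export of small nuclear RNAs, 0 rose and 1 fell. That gene was GEMIN8, a subunit of the SMN complex that loads the Sm ring, at -0.41 ± 0.10 (adjusted p = 0.0122), and it was called under all 35 alternatives. Of 27 genes known for a U12-type intron, 25 were tested, 2 rose and 0 fell in the average, with a list median of 0.05. They were E2F3, a cell cycle transcription factor (0.20 ± 0.06, adjusted p = 0.0266), and MAPK14, the p38 kinase (0.17 ± 0.05, adjusted p = 0.0261). Each was called under 29 of 35 alternatives. Limma voom also called 2 genes of this list in the average, E2F3 and a gene that limma did not call. Over all genes, voom called 1825 of 25203. The E2F3 call was lost (adjusted p up to 0.0697) without CD28 labeled library 1, CD28 control library 1 or 3, PDGFR labeled library 2 or 3, or PDGFR control library 3. The MAPK14 call was lost in 6, including without CD28 control library 2 or 3, PDGFR labeled library 3 or PDGFR control library 1, and with voom, with adjusted p from 0.013 to 0.0861 over the 35 alternatives. In Lck, 3 rose and 1 fell, namely MAPK14 (0.19 ± 0.05), E2F3 (0.21 ± 0.07), MAPK13 (0.61 ± 0.19) and, falling, MAPK12 (-0.53 ± 0.15). The Lck calls held under 27 of 36 alternatives for MAPK14, 10 of 36 for E2F3, 12 of 35 for MAPK13 and 28 of 36 for MAPK12. All 4 were lost without construct weights, with Lck fitted alone and when any of 4 of the 6 Lck libraries was left out, Lck labeled library 2 and Lck control library 3 among them each time. Those of MAPK14 and E2F3 were also lost with voom. The share over all genes called was 7.17% in the average, beside 1 of 14 and 2 of 25, and 8.22% in Lck, beside 4 of 25.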

How the data were processed

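The submitters' processing notes name HISAT2 2.1.0, the hg38 build and, with no version, edgeR. The deposited values are log2 FPKM for 25745 genes in 26 libraries, from -9.73 to 14.8, and already carry a prior count. Identifiers were matched to GENCODE 29 (24075 with version, 1579 without, 91 not). Undoing the prior, about 1 read (mean 1.003), gave reads for 25269 genes. Where these genes had values under 100 reads, those lay on average within 0.05 of a whole number. Higher values were not checked. Other genes were left out of read counts, so this closeness holds by selection.

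Genes above log2 0 in at least 3 libraries (22284) were fitted with limma 3.58.1 in R 4.3.3, a mean for each of 8 groups taken from titles, an intensity trend and library weights by construct (Lyn11 0.993, Lck 2.65, CD28 0.632, PDGFR 0.602). P-values were two-sided and adjusted by Benjamini-Hochberg within each of 9 comparisons, with a call below 0.05. Errors after ± are standard errors unless named SD. The fit was tested on simulated data. The value of 1 marker of another cell type is not reported here. Limma voom on recovered reads, for genes with 10 in at least 3 libraries, was an alternative, as were other filters, scalings and leaving out each library. Intervals from reads cover counting error only.

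Members and lists were chosen with earlier results of these data known. Named genes were the members, genes at the RNA loci, list genes passing the average comparison (up to 2 each way) and the 3 most alike to each RNA. The genes named for Lck and the gene copies were chosen after values were seen.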

Additional observations from a re-analysis of the deposited data

Results flagged for a closer look

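ZRSR2 in Lyn11 labeled library 4 had 1.78 log2 FPKM, apart from the 2.25 to 2.34 of the other Lyn11 labeled libraries. The gap was 0.835 of the group's range, above Dixon's 95% critical value. Of 16 groups of 4 libraries examined, this was the only one so marked, and chance marks about 1 in 20. Without that library the average difference of ZRSR2 was 0.35 with an adjusted p of 0.027 (limma), against 0.32 and 0.058 with all libraries. Leaving out the lowest labeled value of a group raises such a difference by itself.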

How the results depend on the processing

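Labeled and control libraries of the same replicate number deviated together (r over 0.1) in 3 of 13 pairs, and 3 correlated best with their own number. This gave no clear sign of pairing but cannot show that libraries of the same number were prepared apart. With the replicate block, called genes were 1104 for Lck, 0 for CD28, 29 for PDGFR and 0 for CD28 minus PDGFR, and the calls of MAPK14 in the average and of MAPK14, E2F3, MAPK13, MAPK12 and CCDC84 in Lck were lost.

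Called genes were 169 for Lyn11 (93 with the stricter filter, 298 after quantile normalization) and 1831 for Lck (1106 stricter, 177 without weights, 984 fitted alone). CD28 had 15 (32 with log2(FPKM + 1), 106 without weights, 0 alone) and PDGFR 119 (475 without weights, 21 with voom, 15 alone). The average had 1598 (1065 stricter) and inside minus outside controls 2206 (3416 after quantile normalization), of which 1518 were higher and 688 lower inside, against 2377 and 487 after median centring. Inside minus outside had 0, with 3 after log2(FPKM + 1), 1 without weights and 2 without CD28 labeled 2 and PDGFR control 2. CD28 minus PDGFR had 3, and 1, 11 and 9 under those settings, and 0 with voom. Leaving out 1 library gave 84 to 281 for Lyn11, 1010 to 1868 for Lck, 0 to 40 for CD28, 42 to 213 for PDGFR, 1279 to 1801 for the average, 0 to 5 for inside minus outside, 2 to 16 for CD28 minus PDGFR and 941 to 2779 for the controls.

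Labeled minus control stayed above 0 for both RNA rows in every construct under all 36 alternatives, from 2.78 to 4.77 for ENSG00000270022 and 1.52 to 5.24 for RNU4ATAC. The RNA rows were chosen for being higher in labeled libraries, so this sign carries no test. Of 1069 protein mRNA values under alternatives, 7 were called, all of them the ZRSR2 average. Values near 0 changed sign. SNRNP25 was -0.009 with voom in Lyn11 and 0.000 after median centring in PDGFR, SNRNP48 in CD28 -0.026 without both libraries, and the PDCD7 average 0.014 after median centring. Leaving out 1 library gave -0.168 to 0.211 for SNRNP25 in Lyn11 and -0.090 to 0.017 in PDGFR, -0.153 to 0.307 for SNRNP35 in CD28, and for SNRNP48 -0.094 to 0.108 in Lyn11, -0.307 to 0.012 in Lck, -0.026 to 0.649 in CD28 and -0.168 to 0.001 in the average. PDCD7 ran from -0.040 to 0.085 in Lyn11 and -0.061 to 0.010 in the average. For ENSG00000270022, CD28 minus PDGFR ran from -0.470 to 0.851 and the controls from -0.595 to 0.001, and for RNU4ATAC, Lyn11 minus Lck ran from -0.663 to 0.031. The cause of these changes was not tested. Median centring put the median of all genes at 0.148 in CD28 and 0.133 in the controls.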
